A study of Hordeum vulgare with 2 samples.

Results

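In the degradome library of the barley cultivar ZD9, 669 of 15544 listed records with values held at least 6 raw reads while pairing poorly with the small RNA assigned to them. Poor pairing means an Allen score above 6, a mismatch penalty in which a lower score is better pairing. The records were chosen by these measured values, raw reads and Allen score, so reads and scores below are descriptions and carry no test. The records made up 4.30% of the list and lay on 327 transcripts of 177 genes, out of 2430 genes listed in ZD9. Merged by gene and transcript position they gave 656 sites out of 15044.

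The series holds 2 degradome libraries from barley shoots, 1 of ZD9 and 1 of XZ153, and its title sets Tibetan wild barley against cultivated barley under low potassium. The labels describe hydroponic seedlings at 0.01 mM or 1 mM potassium, and they give no level for either library, so potassium cannot be told apart from cultivar here. The labels give no genotype beyond the cultivar name, no number of plants per library and no age at sampling, and treatment began at the stage of 2 leaves. With 1 library per cultivar nothing below has a replicate check. The ZD9 values end at HORVU2Hr1G036110.5 in the order of transcript IDs, and the raw reads of the list sum to 34935, while the depth of either library is unknown.

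A degradome library captures RNA fragments that carry a monophosphate at the 5′ end. Such ends arise when a microRNA guides a cut in its target, opposite the middle of the small RNA. They also arise when transcripts lose their cap and are digested from the 5′ end, where a ribosome halts the exonuclease that follows it, or when other nucleases cut. Degradome lists therefore mix microRNA cuts with ends of general RNA turnover, and the deposited tables keep only positions at which a small RNA aligned. An unlisted position is therefore not a position without reads.

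Selected stretches that hold tall ends are printed below, 5′ to 3′ on the transcript, as assembled from the target windows of the deposited ZD9 table. The selection leaves out ends taller than some of those printed, such as 86 reads on HORVU0Hr1G001490 and 71 on HORVU0Hr1G024950. Capitals mark the first base of each fragment that met the rule, and the coordinates are transcript positions. The sources used here name no genome build or gene model release for these IDs, and 0 of the 177 genes matched the RefSeq table, so no gene name or role is given.

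HORVU1Hr1G043910.1, positions 629 to 664: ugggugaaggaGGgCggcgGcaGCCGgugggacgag
HORVU0Hr1G003270.1, positions 533 to 583: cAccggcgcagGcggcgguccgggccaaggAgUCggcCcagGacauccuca
HORVU0Hr1G004830.4, positions 1080 to 1111: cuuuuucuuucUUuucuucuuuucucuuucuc
HORVU1Hr1G020450.1, positions 1406 to 1426: uguggggauaCUuaugaucgg
HORVU2Hr1G019270.2, positions 434 to 470: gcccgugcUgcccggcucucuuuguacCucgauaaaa
HORVU1Hr1G049280.1, positions 726 to 763: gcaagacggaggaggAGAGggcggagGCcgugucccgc

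These stretches show several patterns, which describe the selected stretches only. The ends of HORVU1Hr1G043910 and HORVU0Hr1G003270 stand close together in GC-rich sequence, those of HORVU0Hr1G004830 lie next to each other in a stretch made of U and C only, and those of HORVU2Hr1G019270 stand 19 positions apart, with the taller at position 461.

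Reads were concentrated in few genes. The records held 8885 reads, 25.4% of the raw reads in the ZD9 list, and reads per record ran from 6 to 148 with a median of 9. Isoforms repeat a cut under shifted coordinates, so records of different isoforms of 1 gene were also merged when the 14 bases around the cut were identical. Records of 1 gene at the same position number were merged too, whatever their bases. Counts of distinct cuts can therefore be too low. This left 392 distinct cuts with 5419 reads, counting the isoform with the most reads. Of the 177 genes, 111 had 1 distinct cut, 17 had at least 5 and 4 had at least 10. The sum per gene ran from 6 to 566 reads with a median of 12. The 3 genes with the most held 23.4% of the reads at distinct cuts and the leading 12 held 45.9%. Sums per gene depend on how many positions a small RNA happened to align to, and they are not scaled to transcript length. The shares of leading genes were not computed over the whole ZD9 list, so the concentration is not read as particular to these records.

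By gene and position HORVU0Hr1G003270 led, with 48 sites and 941 reads on 3 isoforms, 10.8% of the 8727 reads summed that way. HORVU0Hr1G004830 followed with 30 sites and 792 reads. HORVU1Hr1G043910 came next with 24 sites and 566 reads, all on its only isoform among these records. After merging isoforms the order turned. HORVU1Hr1G043910 then led with 24 cuts and 566 reads, against 17 cuts and 368 reads for HORVU0Hr1G003270 and 8 cuts and 335 reads for HORVU0Hr1G004830. The plot of reads by gene shows the 3 ways of counting side by side.

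**Figure D1:**
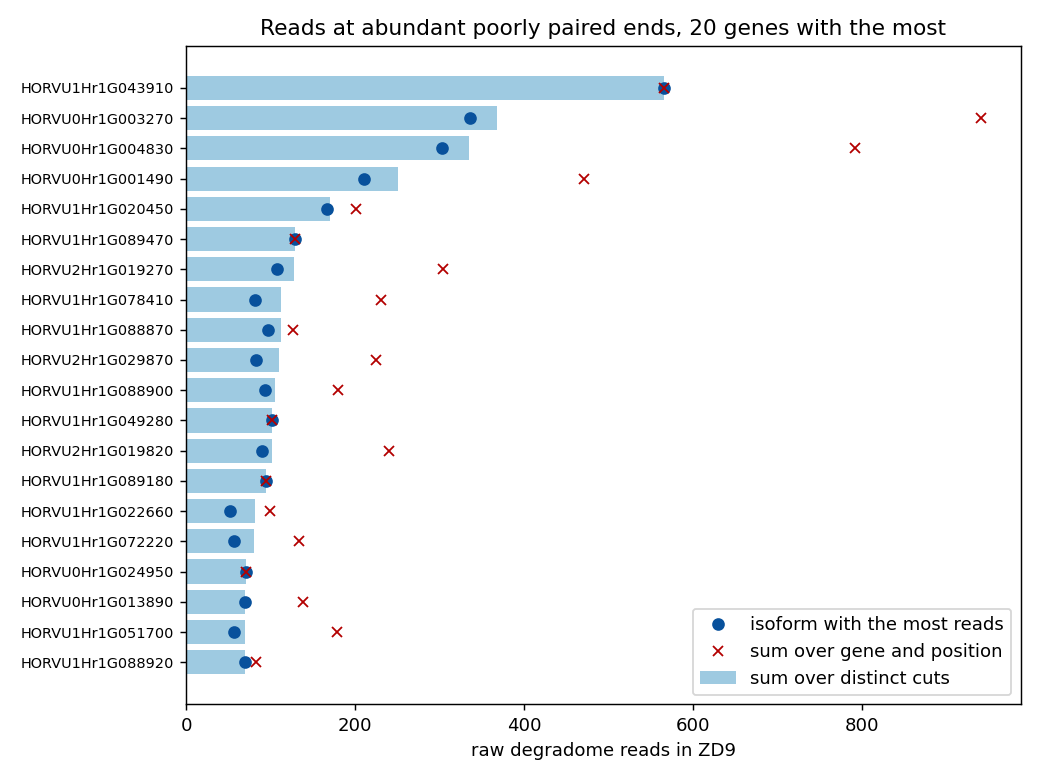
Raw ZD9 reads (horizontal axis) at abundant poorly paired ends for the 20 genes with the most reads at distinct cuts. Bars sum distinct cuts, dots give the isoform with the most reads and crosses sum over gene and position; HORVU1Hr1G043910 holds 566 reads in each count, while HORVU0Hr1G003270 falls from 941 to 368 once isoforms are merged.

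The other genes among the 12 leading by gene and position held fewer reads at distinct cuts. HORVU0Hr1G001490 had 12 cuts with 251 reads, HORVU1Hr1G020450 had 4 cuts with 170 and HORVU2Hr1G019270 had 8 with 128. HORVU1Hr1G078410 had 10 cuts with 112 reads, HORVU2Hr1G029870 had 9 with 110 and HORVU1Hr1G088900 had 4 with 105. These middle genes lay within a narrow range, although their numbers of cuts differed. HORVU2Hr1G019820 had 4 cuts with 101 reads, HORVU1Hr1G051700 had 6 with 70 and HORVU2Hr1G010690 had 5 with 50. For HORVU1Hr1G051700 and HORVU2Hr1G010690 these counts are too low. In HORVU1Hr1G051700 position 292 holds different bases on isoforms 1 and 7 and joined different cuts. In HORVU2Hr1G010690 the ends at positions 349 and 373, with an Allen score of 11, were joined to other cuts. HORVU2Hr1G010690 stood eighth by gene and position, with 24 sites and 227 reads, and its cuts repeat over 18 isoforms.

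In HORVU1Hr1G043910 the ends spread over 557 positions but were highest in a short block. The stretch printed above held 8 of its 24 ends, with 38, 17, 43, 42, 52, 43, 34 and 32 reads in order along the transcript. All of these 8 ends were listed in XZ153 as well. The last 4 of them occupied 4 adjacent positions, 651 to 654, and each was assigned to a length variant of miR8175. These small RNAs, with bases 2 to 8 in capitals, differ by 1 base at the 5′ end from one to the next:

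ath-miR8175_1ss2AT, position 651: gUUCCCCGgcaacggcgcca
ath-miR8175_L+1_1ss3AT, position 652: cGUUCCCCggcaacggcgcca
ath-miR8175_L+2_1ss4AT, position 653: uCGUUCCCcggcaacggcgcca
ath-miR8175_L+3_1ss5AT, position 654: uUCGUUCCccggcaacggcgcca

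The variants measured 20, 21, 22 and 23 bases, and their targets all began at position 640. Because the listed position is the base opposite base 10 of the small RNA, each added 5′ base moved the listed position by 1. Their Allen scores were 11, 10, 9 and 8.5. Further downstream the same transcript carried 45 reads at position 748, which was listed in XZ153. It also carried 29 and 32 reads at the adjacent positions 729 and 730, which were not.

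In HORVU0Hr1G003270 the tallest end recurred on every isoform. The cut gggccaaggAgucggccc held 64 reads on isoform 1, 62 on isoform 2 and 64 on isoform 3. Other cuts of the gene differed by up to 2.71 times between isoforms. On isoform 1 the tallest end stood at position 563 in the stretch printed above. It was followed by 31 reads at position 565, 23 at position 566, 18 at position 570 and 15 at position 574. The same 4 cuts held 16, 21, 11 and 7 reads on isoform 2 and 18, 26, 18 and 19 on isoform 3. All of them stayed below the tallest end, and a steady decline was seen on isoform 1 only. A separate group lay near position 779, where 32 reads were counted.

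The tallest end of all lay in the pyrimidine stretch of HORVU0Hr1G004830. It held 148 reads on isoform 4 and 140 on isoform 2, and the next position held 111 and 118 reads. Both were listed in XZ153 in category 2. The positions just upstream on isoform 4 were also tall, with 64 reads at 1089 and 185 at 1090, but they were outside the rule because their Allen scores were 2.5 and 4.5. Reads at 4 adjacent positions of 1 stretch were therefore divided by the score of whichever small RNA was assigned. The assigned small RNAs, again with bases 2 to 8 in capitals, are runs of A and G:

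osa-MIR5149-p3_2ss9AG18TA, position 1089, Allen score 2.5: aAGGAAAAgaaagagaaa
osa-MIR5149-p5_1ss10AG, position 1090, Allen score 4.5: aAAGGAAAagaaagagaa
cme-MIR172d-p3_2ss5AG17AG_2, position 1091, Allen score 7.5: aAAAGGAAaagaaagagaaaa
cme-MIR172d-p3_2ss6AG18AG, position 1092, Allen score 8.5: aAAAAGGAaaagaaagagaa

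The deposited p-values at these positions were 0.762, 0.932, 0.844 and 0.964 in that order, far above the limit of 0.05 for all 4. HORVU1Hr1G020450 showed the same division. Positions 1414, 1415, 1416 and 1417 of isoform 1 held 21, 49, 95 and 37 reads, and their Allen scores were 6, 6, 8 and 10. The 95 reads at position 1416 were the most at any position of that transcript (category 0) and were assigned, like their neighbours, to MIR6300 hairpin sequence at a deposited p-value of 0.352.

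Tall ends also lay farther apart in other leading genes. In HORVU0Hr1G001490 the cut cacgcggcAagaucuaaa held 86 reads on isoform 1 and 75 on isoform 2. A cut upstream held 39 and 44 reads on those isoforms, with an Allen score of 26. In HORVU2Hr1G019270 the cut ucucuuuguacCucgauaaaa, assigned to hvu-miR5049e, held 39, 51 and 48 reads on isoforms 1, 2 and 3. In HORVU2Hr1G019820 the tallest cut held 36, 33 and 31 reads and the second 30, 28 and 27. In HORVU0Hr1G001490 and HORVU2Hr1G019820 the taller of these cuts was the same on every isoform that carried both.

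**Figure D2:**
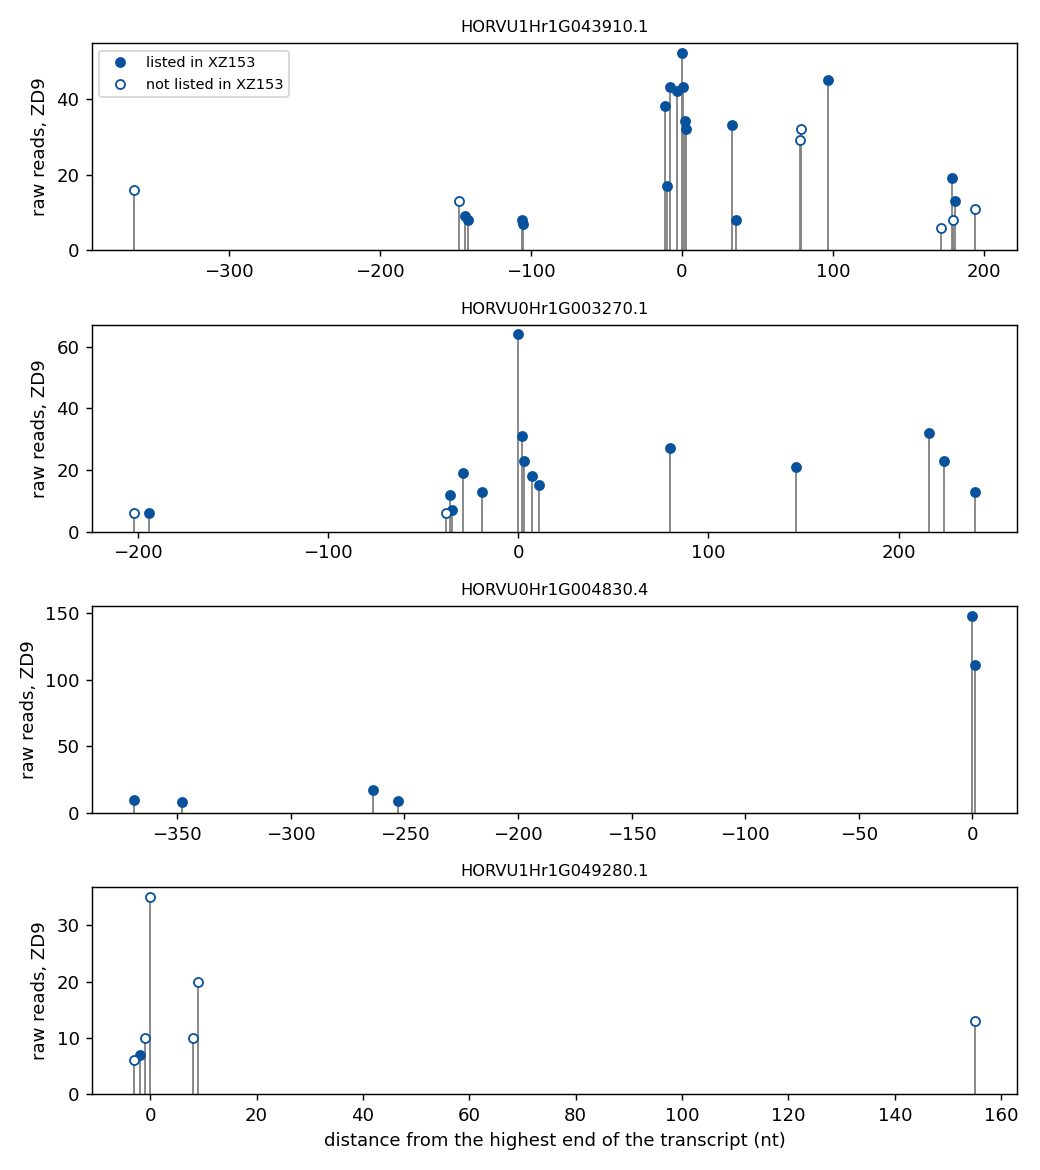
Raw ZD9 reads (vertical axes) of abundant poorly paired ends along 4 transcripts, by distance in nt from the highest such end. Filled points were listed in XZ153 at the same position and open points were not; on HORVU1Hr1G049280.1 only 1 of 7 is filled, against 17 of 24 on HORVU1Hr1G043910.1.

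Across all the genes, 148 distinct cuts were listed on more than 1 isoform. The highest count over the lowest was 1.33 at the median, exceeded 2 at 12 cuts and was 1 at 11. Its largest value, 3, came from HORVU1Hr1G051700, where ends with different bases were merged through position 292. That value, also among the 12, therefore does not compare 1 cut between isoforms. The same holds for the value of 2.5 in HORVU2Hr1G010690, whose merged cut also joined different ends. The sources used here do not say how reads were divided among isoforms.

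Adjacent positions formed 27 distinct runs on 16 genes, and 85 of the 669 records (12.7%) were in a run. Of these runs, 22 covered 2 positions, 3 covered 3 and 2 covered 4. Neighbouring ends of a transcript were 19 positions apart at the median, and 145 of 342 neighbour distances (42.4%) were at most 10. In 16 of the 27 runs (59.3%) all positions were assigned to 1 small RNA family, as with miR8175 above. The other run of 4 positions did not do this. On HORVU1Hr1G049280, positions 741 to 744 held 6, 7, 10 and 35 reads under the names miR164c-3p, MIR408-p3, MIR156g-p5 and MIR2118f-p5. The same stretch held 10 and 20 reads at positions 752 and 753. The shares of runs and distances were not computed over all ZD9 records, so they are not read as particular to these ends.

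The runs of 3 positions were lower. HORVU1Hr1G043910 held 19, 8 and 13 reads at positions 830 to 832 under MIR5368 variants. HORVU1Hr1G091850 held 7, 14 and 6 reads at positions 875 to 877 under 3 families. HORVU2Hr1G029870 held 7, 10 and 9 reads at positions 1296 to 1298 of isoform 3, and its tallest end held 35. None of these runs rose or fell steadily along the transcript.

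Other deposited measures of the alignment were also read. The free-energy ratio, the binding energy of the duplex over that of a perfect one, was 0.681 at the median of these records, from 0.65 to 0.815. Its median was also 0.681 over all ZD9 records and 0.760 over the 201 abundant records with an Allen score of at most 6. The deposited p-value exceeded 0.9 for 603 records (90.1%), against 92.3% of all ZD9 records and 54.7% of the abundant, better paired records. It depends on both the pairing and the category. The assigned small RNA left a gap of at least 2 target bases unpaired in 232 records (34.7%), against 26% of all ZD9 records. A gap of at least 10 bases occurred in 21 records (3.14%), against 0.907% of all ZD9 records. The Allen score counts such gaps, so the rule acts on this measure.

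The position within the transcript was read from the category, which runs from 0 for the position with the most reads through 1 for a tie and 2 and 3 below it to 4 for a single read. Category 2 held 504 records (75.3%), category 3 held 115 (17.2%), category 0 held 42 (6.28%) and category 1 held 8. Category 0 covered 1.7% of all ZD9 records, but reads set the category and also chose the members, so nothing is read from that gap. The 42 records in category 0 lay on 28 genes.

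For the cut of HORVU1Hr1G041790 found on 5 isoforms, the description as poorly paired did not hold up against the deposited values. A record with category 0 to 2 and a deposited p-value of at most 0.05 is called supported here. Of the 669 records 9 were supported (1.35%), against 0.695% of all ZD9 records, and all 9 lay on HORVU1Hr1G041790 or HORVU1Hr1G004400. Reads set the category here too, so nothing is read from the difference in shares.

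On HORVU1Hr1G041790 the supported ends were a cut assigned to miR166, a family known in plants for cutting transcripts of class III HD-ZIP transcription factors. The cut held 8, 9, 11, 8 and 9 reads on isoforms 1, 3, 4, 7 and 15, with an Allen score of 12.5 and p-values from 0.00391 to 0.00471. In XZ153 it was listed on isoforms 3 and 4, as a single read (category 4), and not on isoforms 1, 7 and 15. On isoform 5 the same bases around the cut were listed under another miR166 name with 10 reads and an Allen score of 2. The small RNAs and target windows of isoforms 4 and 5 show the difference, with bases 2 to 8 of the small RNA and the first base of the fragment in capitals:

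ata-miR166a-3p_R+2, assigned on isoform 4: uCGGACCAggcuucauuccccca
target window on isoform 4: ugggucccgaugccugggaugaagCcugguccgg
osa-miR166a-3p_1ss21CA, assigned on isoform 5: uCGGACCAggcuucauuccca
target window on isoform 5: ugggaugaagCcugguccgg

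The window of isoform 4 contains the whole window of isoform 5 at its 3′ end. The longer small RNA was aligned with 11 target bases left unpaired in a gap, which the Allen score counts, and it also appears in this form on isoforms with fewer than 6 reads. Isoforms 8 and 9 held 7 and 8 reads at uuccugugaauagCcugguccgg, where the bases upstream of the cut differ, at an Allen score of 10.5 and p-values of 0.344 and 0.352. Over the isoforms given here reads ran from 7 to 11 and the score from 2 to 12.5, while isoforms with fewer than 6 reads lay outside the rule.

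On HORVU1Hr1G004400 the supported cut cgcggcgcggcGugccgcugc was assigned to hvu-MIR156b-p5, the 5′ arm of a hairpin rather than a mature microRNA. It held 15, 16, 11 and 14 reads on isoforms 1, 2, 3 and 5, with an Allen score of 7 and p-values from 0.0405 to 0.0410. It was the highest position of each of these isoforms. Of them XZ153 listed the cut on isoforms 2 and 5, in categories 0 and 4, and not on isoforms 1 and 3. On isoform 6 the same cut held 13 reads in category 2 with a p-value of 0.535. No window of this gene contained a better paired target, so its pairing remained poor by score.

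A window that contained the target of a record with an Allen score of at most 6 on the same gene was found for 36 records on 16 genes. Besides HORVU1Hr1G041790 they included both adjacent ends of HORVU0Hr1G004830 and those of HORVU1Hr1G020450. On HORVU1Hr1G061830, 6 records, of which 3 are among those 36, lay within 10 positions of a supported miR166c-5p site of 7 or 8 reads. The nearest stood 1 position away with 7 reads. In all, 39 of the 177 genes were also among the 71 genes with an abundant, better paired record. Over all ZD9 genes, 177 of 2430 (7.28%) carried an abundant, poorly paired record. Both sets of genes passed the same limit of 6 reads, so nothing is read from their overlap. For the 36 records no share over all ZD9 records was computed.

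At 6 sites the same gene and position number also carried a record with an Allen score of at most 6 on another isoform. In HORVU1Hr1G041790 at position 1063 the bases at the cut were the same, with 9 reads on isoform 3 and 6 reads on isoform 2 at scores of 12.5 and 3. At the other 5 sites the bases differed, so the shared number marks different bases. They included HORVU0Hr1G003270 at position 439, with 18 reads on isoform 3 and 18 on isoform 1. HORVU2Hr1G010690 at position 445 held 11 reads on isoform 3 and 4 on isoform 13, and HORVU0Hr1G003890 at position 1285 held 10 reads on isoform 6 and 3 on isoform 7.

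The names assigned to these ends were spread over many families. The records carried 214 of the 784 small RNA names in ZD9, from 75 numbered families and 3 newly predicted names without a family number. Hairpin arms made up 73.2% of them, mature microRNAs 25.1% and newly predicted sequences 1.64%, against 71.0%, 27.3% and 1.71% of all ZD9 records. The most frequent families were miR169 with 71 records, miR5368 with 69 and miR4995 with 44. They made up 10.6%, 10.3% and 6.58% of the records, against 7.64%, 9.01% and 5.13% of the whole ZD9 list. Isoforms repeat cuts in these shares: without HORVU2Hr1G010690 the miR169 share was 8.02%, against 7.47% of the list.

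The base composition around the ends was described by record and with each gene weighted equally, since records of 1 gene share sequence. The target windows had a GC content of 63.7% by record and 63.3% by gene. This was close to the 62.3% of all ZD9 records and above the 53.5% of the abundant, better paired records. The first base of the fragment was U in 10.5% of records, or 10.2% by gene, against 16.6% and 17.1% over all ZD9 records. It was U in 15.1% of records with a score above 6 and fewer reads, or 15.4% by gene. For the abundant, better paired records it was 25.9%, or 19.2% by gene. The first base was A, C and G in 26.0%, 30.3% and 33.2% of records, against 24.0%, 26.3% and 33.1% of all ZD9 records.

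Some ends shared sequence across genes. Among 368 distinct sequences of 14 bases around a cut, 18 occurred in more than 1 gene, covering 80 records on 26 genes. The cut cuccgccugCcgcguggug held 35 reads on HORVU0Hr1G000850, 29 on HORVU1Hr1G065660, 26 on HORVU1Hr1G065630 and 23 on HORVU0Hr1G000760. It was the highest position of all 4 transcripts. The cut uauccgagCagcuugcaaau held 17 to 29 reads on AGP50763, HORVU0Hr1G029790 and HORVU0Hr1G031270. The sources used here do not say how reads matching several genes were assigned, so the counts of these genes are uncertain.

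The digit after HORVU in the ID names the chromosome, and 0 stands for sequence not placed on one. The genes included 34 with digit 0, 101 with digit 1 and 40 with digit 2, and 2 had AGP numbers. These were 7.62%, 6.89% and 7.84% of the ZD9 genes with each digit, so the ends were spread about evenly over the listed genes. The ZD9 values end within digit 2, so later digits are not covered.

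XZ153 was not used to choose these ends, so their listing there is a separate measurement. The same transcript position was listed in XZ153 for 500 of the 656 sites, or 76.2% (exact 95% interval 72.8 to 79.4). Over all ZD9 sites the share was 18.9%. Up to the last ZD9 gene with values, XZ153 listed 8357 records, against 15544 with values in ZD9. Over all ZD9 sites with at least 6 reads, at any Allen score, it was 75.6%, so the share among poorly paired ends is near that background. For the better paired sites with at least 6 reads it was 147 of 200, or 73.5% (66.8 to 79.5). The intervals cover counting error only, and sites of 1 gene and isoforms of 1 cut are not independent. Of the 508 listed records 506 carried the same small RNA name in both libraries.

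The share listed was higher with more reads. Among poorly paired sites it was 10.5% at 1 read, 20.2% at 2 reads and 37.6% at 3 to 5 reads. It was 70.6% (66.0 to 74.9) at 6 to 10 reads, 82.4% (75.3 to 88.2) at 11 to 20 and 94.2% (87.0 to 98.1) above 20. Better paired sites with 6 or more reads followed the same order, at 65.0%, 82.1% and 92.9%, and their intervals overlapped those of the poorly paired sites in each class.

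**Figure D3:**
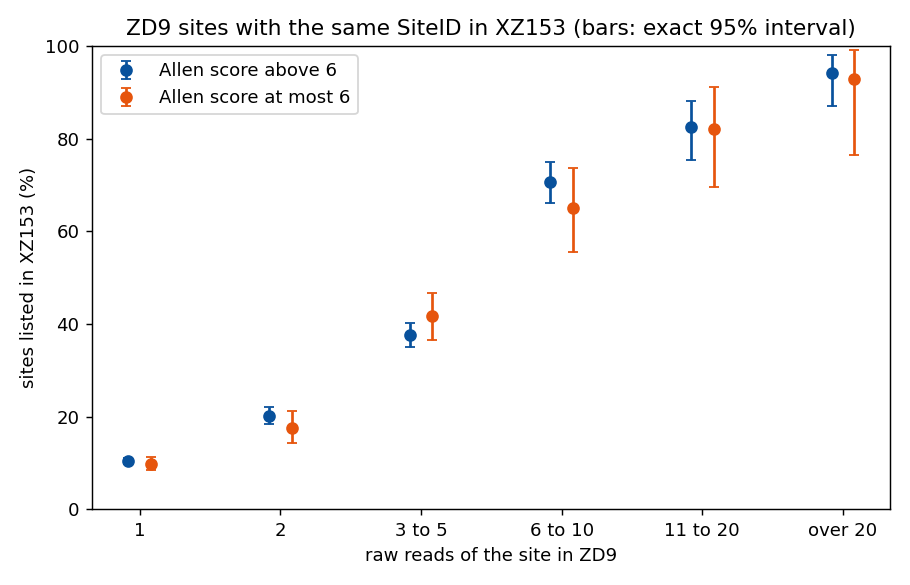
Share of ZD9 sites listed at the same position in XZ153 (vertical axis, percent) by raw reads in ZD9, for poorly paired (Allen score above 6) and better paired sites. Points are shares and bars exact 95% intervals for counting error only; the poorly paired share goes from 10.5% at 1 read to 94.2% above 20 reads and the intervals of the pairing classes overlap at each step.

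By gene the listing was less complete. All sites were listed for 80 of the 177 genes, or 45.2% (37.7 to 52.8), and at least 1 site for 121, or 68.4%. For genes with abundant, better paired sites these counts were close, at 35 of 71 (49.3%) and 47 of 71 (66.2%). Of the 56 genes with no site listed 53 had a single cut, and 47 had other records in XZ153. By distinct cut the share was 288 of 392, or 73.5%. Of the 148 cuts on several isoforms 110 were listed on every isoform and 29 on some.

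Heights in XZ153 could be compared by category only. Of the 508 records listed in both libraries 257 (50.6%) fell in category 0 to 2 there, and 128 were single reads. The share in category 0 to 2 was 42.1% of 304 records with 6 to 10 reads in ZD9, 57.4% of 122 with 11 to 20 and 72.0% of 82 above 20. It was 19.7%, 26.5% and 33.2% for poorly paired records of 1, 2 and 3 to 5 reads. Category 0 in XZ153 was rare, with 4 records (0.787%), close to the 17 of 1834 (0.927%) for poorly paired records with fewer reads. For abundant, better paired records it was 15 of 148 (10.1%). Those records were also more often in category 0 in ZD9, at 54 of 201 (26.9%) against 42 of 669 (6.28%). Their share in category 0 to 2 in XZ153 was 87 of 148 (58.8%), nearer to the 50.6% of the poorly paired records.

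**Figure D4:**
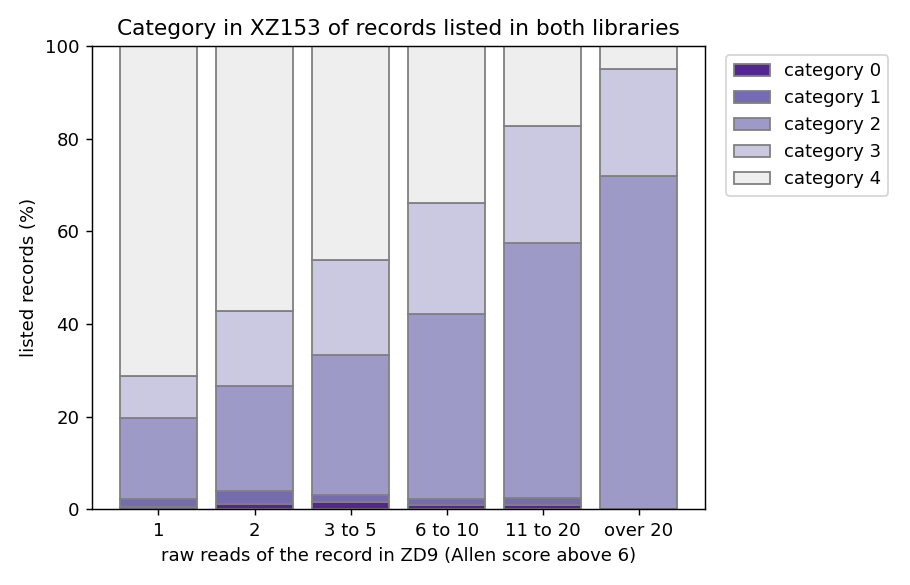
Category in XZ153 (stacked shares, percent) of poorly paired records listed in both libraries, by raw reads in ZD9. Category 4, a single read, makes up 33.9% at 6 to 10 reads and 4.88% above 20, where category 2 holds 59 of 82 records.

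Of the 86 sites above 20 reads 5 were not listed in XZ153. Both adjacent ends of HORVU1Hr1G043910 at positions 729 and 730 were among them. The others were position 744 of HORVU1Hr1G049280 with 35 reads, HORVU0Hr1G000850 with 35 and HORVU0Hr1G000760 with 23. The sequence at the cut of the last pair was listed in XZ153 on HORVU1Hr1G065630 and HORVU1Hr1G065660, so for them the listing differed between copies and not for the sequence as a whole.

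In HORVU1Hr1G049280 1 of 7 sites was listed in XZ153, that of position 742 as a single read. The gene had 24 records in ZD9 and 2 in XZ153. Over the whole range with ZD9 values the libraries had 15544 and 8357 records, so XZ153 listed fewer in general. In HORVU1Hr1G091850 2 of 6 sites were listed, and in HORVU1Hr1G078350, with 58 records in XZ153, 1 of 6. In the 3 genes with the most reads by gene and position, 45 of 48 sites were listed for HORVU0Hr1G003270, 27 of 30 for HORVU0Hr1G004830 and 17 of 24 for HORVU1Hr1G043910. Whether fewer transcripts of HORVU1Hr1G049280 or fewer ends per transcript lay behind its values cannot be told apart, since the tables hold no transcript levels.

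Among genes with no site listed in XZ153, HORVU0Hr1G000050 held 12 and 10 reads at the adjacent positions 378 and 379. XZ153 listed 0 records on this gene, against 3 in ZD9. HORVU0Hr1G016920 held 6, 7 and 7 reads at 1 cut on 3 isoforms. HORVU1Hr1G064160 held 11 and 7 reads at 1 cut on isoforms 3 and 4, and HORVU1Hr1G018500 held 7 and 7 on isoforms 4 and 8. The last 2 of these cuts were the highest position of their transcripts.

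At the edges of the rule the values changed gradually. The 135 records with exactly 6 reads were listed in XZ153 in 62.2% of cases, and the 232 poorly paired records with 5 reads, just outside, in 55.2%. The 58 records with an Allen score of 6.5 were listed in 74.1%, and the 40 abundant records with a score of 6, just outside, in 72.5%.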

How the data were processed

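Per the labels' protocols, an adapter was joined to monophosphate 5′ ends of poly(A) RNA, and the cDNA was amplified in 15 cycles and sequenced from 1 end for 50 nt. Per the file headers, the deposited tables hold CleaveLand-style records of 1 small RNA, 1 transcript and 1 position. The sources used here name no aligner, version, build or transcript release. The deposited raw read count of ZD9, the deposited Allen score and category score, the deposited free-energy ratio and the deposited p-value, not adjusted for the number of records, were used as given. Of 17485 ZD9 records 1941 had no values, and 3 ZD9 lines and 20 XZ153 lines are not analysed here. XZ153 has 40424 records, of which 8357 lie up to the last ZD9 gene with values. Reads of XZ153 were not used.

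Records with at least 6 reads and an Allen score above 6 were taken with Python 3.11.15 and pandas 2.3.3. Isoform numbers were cut from transcript IDs to give genes. Intervals are exact Clopper-Pearson 95% intervals from scipy 1.17.1. A site counted as listed in XZ153 when the same transcript and position had a record on any isoform. The listed position was opposite base 10 of the small RNA in 13931 of 13937 records checked. The merging of isoforms and the search for runs were tested on simulated records. In these no position number was shared by different bases, so the joining of different cuts was not tested. Members and lists were chosen with earlier results of these data known. Merging isoforms by the 14 bases at the cut, and the definition of supported records, were chosen after the data were seen. Genes were named by a rule. It took the 12 with the most reads by gene and position and the 6 with the longest runs. It also took the 6 with the most reads and no site in XZ153, and the 4 tallest sites with a better paired record. HORVU0Hr1G024950, HORVU1Hr1G004400, HORVU1Hr1G061830, HORVU1Hr1G078350 and genes sharing sequence were named after their values were seen. The printed stretches were selected in the same way. No test between cultivars was made.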

Additional observations from a re-analysis of the deposited data

How the results depend on the processing

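Of 30 alternative values for 7 results, 18 stayed within the margin set for each result and 12 moved; no test was run, so no call could be lost. With at least 10 reads the rule left 278 sites on 77 genes, and the share listed in XZ153 was 85.3%. Keeping the isoform with the most reads per gene gave 348 sites, 4906 reads and 11.5% of reads in the leading gene, against 656, 8727 and 10.8%. Merging isoforms by the bases at the cut, chosen after the data were seen, gave 392 cuts with 5419 reads and 53.1% of genes with every cut listed, against 45.2%, and the leading gene became HORVU1Hr1G043910. Records in runs numbered 85, but 178 with positions up to 5 apart, and 148 when any listed position of at least 2 reads counted as a neighbour. Allowing a XZ153 record within 5 positions raised the share listed from 76.2% to 82.6%. No paired analysis was possible because each cultivar has 1 library. The unknown depth limits every comparison of listing: a site with few reads can be missed in either library.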
